A study of Mus musculus with 6 samples.

Results

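A set of 10 genes was followed in cultured mouse embryonic fibroblasts (MEFs): Acta2, Actg2, Tagln, Cnn1, Myl9, Tpm1, Tpm2, Cald1, Lmod1 and Srf. They were taken by symbol from the 43346 rows of the count table, and all 10 were present. The 6 libraries came from primary C57BL/6 MEFs at passage 9 that had been kept for 24 h with 3 µM erastin (3 libraries) or with its solvent, DMSO (3 libraries). Erastin is a small molecule that blocks cystine uptake by the cystine/glutamate antiporter and so starves cells of the cysteine needed for glutathione, which can bring on ferroptosis, an iron-dependent death with peroxidation of membrane lipids. The RNA was total RNA depleted of ribosomal RNA. The labels give a triplicate experiment but do not say that replicates were separate cultures, so p-values measure the spread between these libraries, which may be technical.

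Smooth-muscle-type contractile genes encode the actins, tropomyosins, myosin light chain and actin-binding proteins of the contractile apparatus of smooth muscle. Fibroblasts in culture also make many of them, and build them into stress fibres. SRF, serum response factor, is a transcription factor that binds a DNA element called the CArG box. With partners of the myocardin family (MRTF-A and MRTF-B, which monomeric actin holds in the cytoplasm) it drives contractile and cytoskeletal genes. With ternary complex factors (TCFs, of the ETS family) it drives immediate early genes.

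The CArG box is CC, then 6 letters that are A or T, then GG, and it reads as a CArG box on both strands. It was searched in the 250 bases before each RefSeq start (GRCm38.p6), and 482 of 32851 (1.47%) held a box. RefSeq promoters were matched for 8 of the 10 genes, in 9 windows. Actg2 and Tagln had no matched window and were not searched. Exact boxes stood in Myl9, with 1 box, and in Srf itself, with 2, which is 2 of the 9 windows (22.2%). Related genes listed below were searched too. A box stood in 5 of 18 windows of the relatives (27.8%) and 4 of 12 of cytoskeletal SRF and MRTF targets (33.3%). The immediate early genes had 4 of 10 (40.0%). No box stood in windows of SRF partner genes (0 of 10), other smooth-muscle genes (0 of 8) or TGF-beta pathway genes (0 of 6). A box was therefore not particular to the 10 genes. Among the 10, Myl9 and Srf were the 2 searched genes with a box, so their stretches upstream of every annotated start are shown, with boxes in capitals. Myl9 is from chr2:156775214-156775419 on the plus strand, and Srf is from chr17:46556176-46556412 on the minus strand.
Myl9: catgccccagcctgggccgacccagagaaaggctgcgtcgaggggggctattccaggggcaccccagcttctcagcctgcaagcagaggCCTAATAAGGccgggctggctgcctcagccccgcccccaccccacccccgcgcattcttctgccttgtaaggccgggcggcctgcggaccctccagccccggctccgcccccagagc
Srf: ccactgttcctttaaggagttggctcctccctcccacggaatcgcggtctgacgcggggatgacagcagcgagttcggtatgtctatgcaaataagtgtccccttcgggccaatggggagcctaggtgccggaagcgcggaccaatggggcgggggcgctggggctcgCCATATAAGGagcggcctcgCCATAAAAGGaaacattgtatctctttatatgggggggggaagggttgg
The Myl9 box lay 161 to 152 bases before the RefSeq start, and the Srf boxes lay 82 to 73 and 62 to 53 bases before it. Sequences 1 letter off a box were far more common: 6117 of all promoters (18.6%) and 6 of the 9 windows held a box or such a sequence. Acta2 had a pair of sequences 1 letter off and no exact box. They are shown in capitals with 10 bases on each side, the upper (chr19:34255438-34255467, minus strand) 84 to 75 and the lower (chr19:34255388-34255417, minus strand) 34 to 25 bases before the RefSeq start. Both lie within the GENCODE M21 span of the gene, which starts farther upstream.
Acta2 upper: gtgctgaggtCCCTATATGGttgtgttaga
Acta2 lower: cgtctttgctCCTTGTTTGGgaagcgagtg
A match is a description of the letters, and binding of SRF was not measured here.

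The libraries held 13333911 to 20509970 counts, and 14000 genes passed the filter on low counts, all 10 genes among them. Levels are given as CPM, read counts for a fixed library total, scaled by TMM (trimmed mean of M-values) library factors, and differences as log2 fold changes of erastin against DMSO with their standard error (SE). Adjusted p-values are those of edgeR's quasi-likelihood test over all 14000 genes, with a threshold of 0.05. Fibroblast markers were abundant in every library, with 10 markers summing to 35433.0 to 38495.6 CPM with DMSO and 25454.8 to 26901.4 CPM with erastin. Of these markers 8 were lower, 0 higher and 2 did not pass, so they moved with the contractile genes, and their part in the results was not tested. Summed endothelial markers rose from 4.71 to 7.10 CPM with DMSO to 13.3 to 16.6 CPM with erastin, through the receptor genes Kdr and Tek (named after their values were seen). The defining endothelial genes Pecam1, Cdh5 and Tie1 reached at most 0.778 CPM. Macrophage markers summed to 14.2 to 17.5 CPM with DMSO and 11.8 to 20.5 CPM with erastin, and epithelial markers to 14.4 to 17.5 and 15.0 to 26.9 CPM. Skeletal muscle markers summed to at most 1.94 CPM and cardiac muscle markers to at most 4.67 CPM in any library.

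Of the 10 genes 9 were lower with erastin, 0 were higher, and Cald1 did not pass the test. Over all 14000 genes 43.1% were called, 21.5% as lower and 21.6% as higher. The 10 genes had a median log2 fold change of −0.85, beside −0.001 over all genes, and ranged from −1.85 for Myl9 to −0.01 for Cald1. In each of the 9 genes the highest erastin library lay under the lowest DMSO library, a separation in that direction that 25.9% of all genes showed (26.7% in the opposite one, 52.5% in either). Myl9, Cnn1 and Lmod1 were called and fell more than 2-fold. Of all genes 7.16% were called and fell at least 2-fold, and 4.99% were called and rose that much. In bulk RNA, fewer cells of a type and less RNA per cell cannot be told apart. Together the 10 genes took 1.02%, 0.934% and 0.953% of all counts in DMSO replicates 1 to 3, and 0.635%, 0.637% and 0.632% in erastin replicates 1 to 3.

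**Figure D1:**
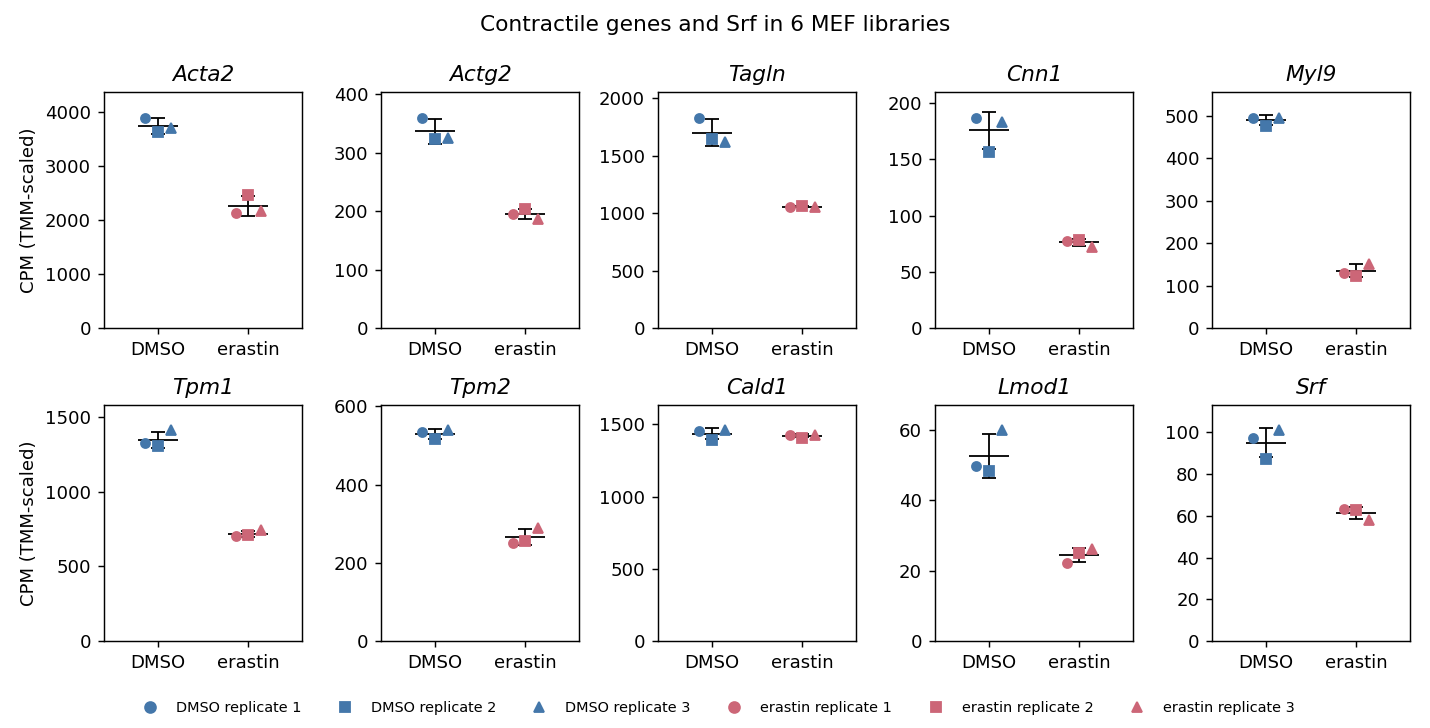
CPM (TMM-scaled, linear axes from 0) of the 10 genes in the 3 DMSO libraries (blue) and 3 erastin libraries (red); long bars are means and whiskers are SD (n = 3), with a different scale in each panel. The groups do not overlap for 9 genes, and for Cald1 they cover the same range.

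Acta2 had the highest level of the 10 genes, and Actg2 is the other smooth-muscle actin. Acta2 (ENSMUSG00000035783.8, chr19:34241090-34255590, minus strand) encodes alpha smooth-muscle actin, the usual marker of myofibroblasts. It stood at 3902.1, 3628.9 and 3703.6 CPM with DMSO and at 2135.4, 2476.0 and 2171.8 CPM with erastin. The lowest DMSO library was well above the highest erastin library, and the means went from 3744.9 ± 141.2 to 2261.1 ± 187.0 CPM (SD, n = 3). The log2 fold change was −0.73 (SE 0.071, adjusted p = 1.16e-06). Actg2 (ENSMUSG00000059430.10, chr6:83512905-83536265, minus strand), the gamma actin of enteric smooth muscle, stood at 359.7, 322.4 and 325.5 CPM with DMSO and 194.9, 203.2 and 186.0 CPM with erastin. Its log2 fold change was −0.79 (SE 0.074, adjusted p = 8.61e-07). Actin genes are similar in sequence, and 0.352% of the 50-base windows of Acta2 transcripts and 0% of those of Actg2 also occurred in another gene's transcript, whereas for the nonmuscle actin Actg1 it was 56.7%.

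Tagln, Cnn1 and Lmod1 encode proteins that bind actin filaments. Tagln (ENSMUSG00000032085.4, chr9:45929619-45936058, minus strand), coding for transgelin or SM22 alpha, stood at 1833.6, 1646.1 and 1619.4 CPM with DMSO and 1058.7, 1064.4 and 1055.1 CPM with erastin. Its erastin libraries lay close together, and the log2 fold change was −0.68 (SE 0.068, adjusted p = 1.38e-06). Tagln overlaps Pcsk7 and Gm48529 on the other strand, and 48.3% of its 50-base windows are shared with their transcripts. Whether counting used the strand is not given in the sources used here, so its counts are uncertain in that respect.

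Cnn1 (ENSMUSG00000001349.4, chr9:22099216-22109630, plus strand), coding for calponin 1, which binds actin and tropomyosin, stood at 187.2, 156.5 and 183.4 CPM with DMSO. With erastin it stood at 77.7, 78.7 and 72.6 CPM, so that each erastin library was near the others and far below any DMSO library. Its log2 fold change was −1.20 (SE 0.088, adjusted p = 7.66e-08). Lmod1 (ENSMUSG00000048096.7, chr1:135324807-135368065, plus strand), coding for leiomodin 1, which nucleates actin filaments in smooth muscle, was the least abundant of the 10. It stood at 49.8, 48.4 and 59.9 CPM with DMSO and at 22.3, 25.1 and 26.1 CPM with erastin. The log2 fold change was −1.10 (SE 0.117, adjusted p = 2.81e-06).

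Myl9 (ENSMUSG00000067818.6, chr2:156775420-156781658, plus strand) encodes the regulatory light chain of smooth-muscle myosin, whose phosphorylation switches contraction on. It stood at 495.9, 475.7 and 496.1 CPM with DMSO and at 129.6, 124.2 and 152.5 CPM with erastin. Myl9 had the largest decrease of the 10 genes. The means went from 489.2 ± 11.7 to 135.4 ± 15.0 CPM (SD, n = 3), a log2 fold change of −1.85 (SE 0.084, adjusted p = 1.01e-09). By rounded p-value it was tied at place 13 of all 14000 genes, and 2.61% of them had a lower log2 fold change.

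Tropomyosins lie along the actin filament and set which proteins bind to it. Tpm1 (ENSMUSG00000032366.11, chr9:67022590-67049406, minus strand) stood at 1326.1, 1303.8 and 1409.6 CPM with DMSO and at 701.9, 711.2 and 741.1 CPM with erastin. Tpm2 (ENSMUSG00000028464.12, chr4:43514711-43523765, minus strand) stood at 533.1, 515.6 and 538.0 CPM with DMSO and at 251.5, 255.9 and 288.2 CPM with erastin. Both pairs of groups were wide apart compared with their spread. The log2 fold changes were −0.91 for Tpm1 (SE 0.065, adjusted p = 6.46e-08) and −0.996 for Tpm2 (SE 0.073, adjusted p = 7.3e-08). The count table gives 1 value per gene, so the muscle and nonmuscle transcripts of Tpm1 (21 annotated transcripts) could not be separated.

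Cald1 (ENSMUSG00000029761.12, chr6:34598500-34775473, plus strand) encodes caldesmon, which restrains myosin on the thin filament and comes in a smooth-muscle and a nonmuscle form. It stood at 1454.5, 1394.6 and 1457.9 CPM with DMSO and at 1429.2, 1407.4 and 1428.2 CPM with erastin. The ranges overlapped, and the log2 fold change was −0.01 (SE 0.061, 95% confidence interval −0.145 to 0.117, adjusted p = 0.877). On the linear scale that interval runs from −9.59% to 8.45%. The gene's 18 annotated transcripts are counted as 1, so the 2 forms could not be told apart. Cald1 overlaps Gm13861, Npn2 and Gm14547 on the other strand, whose reads could enter its count.

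Srf (ENSMUSG00000015605.5, chr17:46548329-46556175, minus strand) stood at 96.9, 87.0 and 100.7 CPM with DMSO and at 63.1, 62.9 and 58.1 CPM with erastin. The groups did not overlap, and the means went from 94.9 ± 7.07 to 61.4 ± 2.84 CPM (SD, n = 3). The log2 fold change was −0.63 (SE 0.089, adjusted p = 4.77e-05), which was the smallest change among the 9 genes that fell. With an offset for the trend of counts with GC content and length, the log2 fold change of Srf was −0.25 (adjusted p = 0.0274, edgeR). The longest Srf transcript has a GC content of 64.4%, and those of the other 9 genes have 45.0% to 56.6%.

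**Figure D2:**
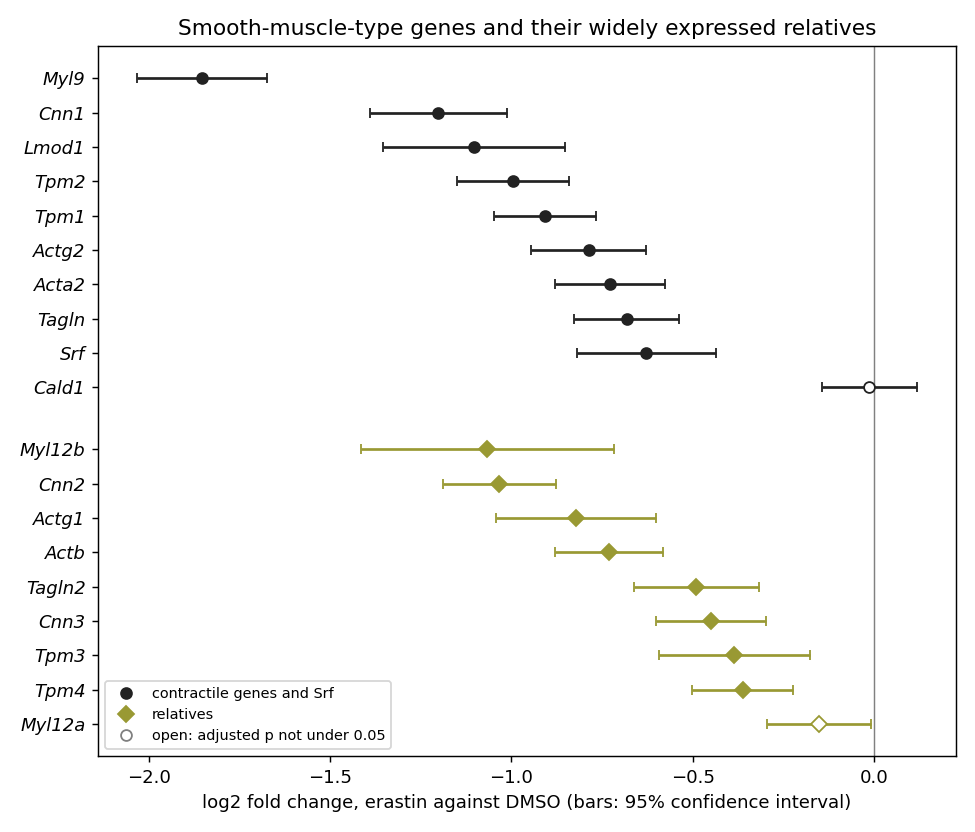
Log2 fold change of erastin against DMSO (x axis, points) with 95% confidence intervals (bars) for the 10 genes (black circles) and 9 widely expressed relatives (diamonds); open symbols did not pass the threshold. Myl9 lies farthest to the left at −1.85, and Cald1 and Myl12a are the open symbols.

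Levels of different genes were compared per kilobase of the longest annotated transcript. With DMSO the order was Acta2 (1840.2 CPM per kb), Tagln (1065.6), Tpm1 (465.9), Myl9 (433.7), Cald1 (300.5), Actg2 (252.0), Tpm2 (243.2), Cnn1 (73.8), Srf (36.3) and Lmod1 (13.4). Of neighbours in that order, the DMSO libraries overlapped for Actg2 and Tpm2 alone. Acta2 was at rank 20 of 13937 genes with DMSO and at rank 22 with erastin, and nonmuscle Actb was at ranks 11 and 14. Myl9 went from rank 89 to rank 365, whereas Cald1 went from rank 149 to rank 116, so that Myl9 (120.0 CPM per kb) stood below Cald1 (297.6 CPM per kb) with erastin.

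To compare the genes with each other, the ratio of counts between 2 of the 10 was taken within each library, and 33 of the 45 possible ratios separated the erastin from the DMSO libraries. For all pairs of the 14000 genes this share was 49.0%. All 17 ratios with Myl9 or Cald1 separated the groups, and among the other 8 genes 16 of 28 (57.1%) did. Myl9 and Cald1 had the largest and smallest changes of the 10 and were set apart after their values were seen. That ratios with them separated more often follows from this choice. The groups overlapped for 12 ratios, among them those of Acta2 to Actg2, Tagln, Tpm1 and Srf, and those of Cnn1 to Lmod1 and Tpm2. Acta2 made up 38.1%, 37.9% and 37.4% of the counts of the 10 genes with DMSO and 35.2%, 38.6% and 35.1% with erastin.

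Relatives of the contractile genes that many cell types express, or that belong to striated muscle, were mostly lower too. Of 18 listed relatives 13 were tested, of which 10 were lower, 2 higher and 1 did not pass, with a median log2 fold change of −0.45. For this list and those below, the shares over all genes tested were 21.5% lower and 21.6% higher. Actb, the nonmuscle beta actin, went from 6087.0 ± 384.2 to 3664.9 ± 229.9 CPM (SD, n = 3), with a log2 fold change of −0.73 (adjusted p = 9.13e-07). Cnn2, a calponin of nonmuscle cells, had a log2 fold change of −1.03 (adjusted p = 5.01e-08), and Acta1, the skeletal-muscle actin, one of −1.58 (adjusted p = 1.92e-07). The 2 that rose were tropomodulin genes, whose proteins cap the slow-growing end of actin filaments: Tmod2 (log2 fold change 1.02, adjusted p = 0.00136) and Tmod3 (0.27, adjusted p = 0.0152), both named after their values were seen. Tmod3 did not pass without DMSO replicate 1 (adjusted p = 0.0692), without erastin replicate 1 (adjusted p = 0.0523) or with the GC and length offset (adjusted p = 0.351). Myl12a, a nonmuscle regulatory light chain gene, went from 589.1 ± 28.9 to 530.4 ± 10.3 CPM (log2 fold change −0.15, adjusted p = 0.081). It passed with upper-quartile factors (adjusted p = 0.023) and with DESeq2 (adjusted p = 0.0381).

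To compare a contractile gene with its relative directly, the log2 ratio of their counts was taken within each library, in 9 pairs. The Acta2 to Actb ratio was −0.743, −0.700 and −0.656 with DMSO and −0.703, −0.663 and −0.728 with erastin. These values overlapped throughout, and the difference was 0.002 (2-sided exact permutation p = 1.0). The Actg2 to Actg1 ratio likewise overlapped, with a difference of 0.03 (2-sided exact permutation p = 0.9). The largest difference was that of Myl9 to Myl12a, whose ratio was −0.328, −0.271 and −0.203 with DMSO and −2.002, −2.103 and −1.821 with erastin, a difference of −1.71. Against the other nonmuscle light chain gene, Myl12b, the difference was −0.76. For the tropomyosins the differences were −0.53 for Tpm1 to Tpm3 and −0.64 for Tpm2 to Tpm4. Cnn1 fell relative to Cnn3 by 0.75 on the log2 scale, whereas its ratio to Cnn2 overlapped between the groups (difference −0.16, exact permutation p = 0.3). In the Tagln to Tagln2 ratio the difference was −0.19, from 2.850, 2.819 and 2.803 with DMSO to 2.539, 2.603 and 2.766 with erastin. In all, 6 of the 9 ratios did not overlap between groups, each with a 2-sided exact permutation p of 0.1, the smallest that 3 against 3 libraries can give (0.15 after Benjamini-Hochberg adjustment over the 9 pairs). Over all pairs of tested genes, 49.0% of such ratios did not overlap. Relatives with near-identical sequence carry some uncertainty: 29.6% of the 50-base windows of Myl12a, 25.5% of those of Cnn3, 17.0% of those of Tpm3, 16.1% of those of Tpm4, 14.2% of those of Actb and 11.4% of those of Myl12b also occurred in another gene's transcript.

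**Figure D3:**
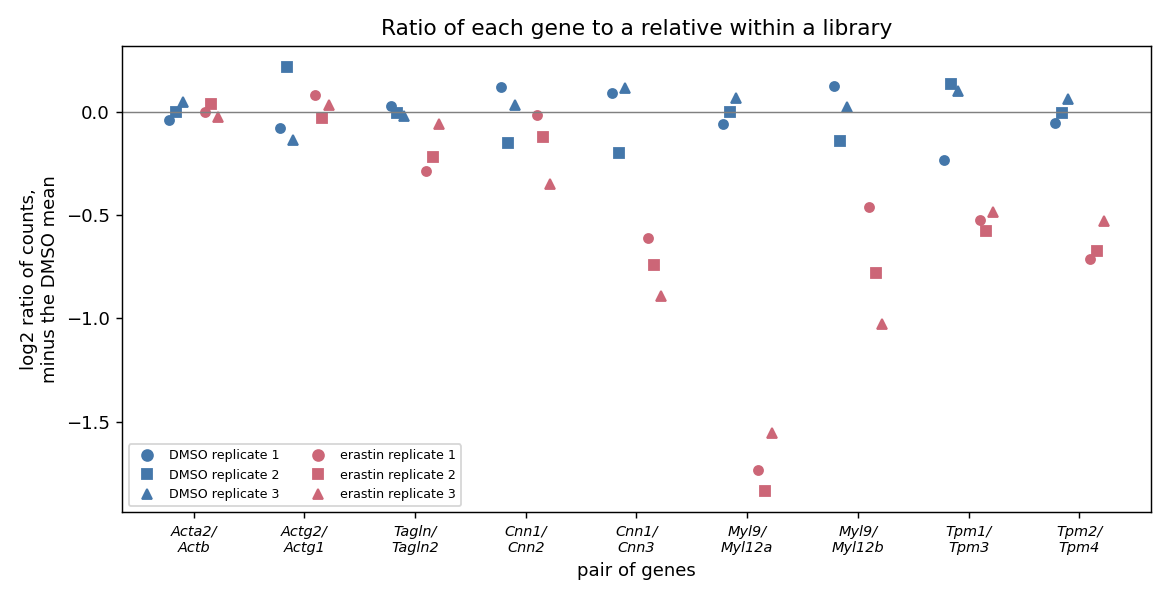
Log2 ratio of a contractile gene's count to that of its relative in each library, minus the mean of the 3 DMSO libraries (y axis), for 9 pairs (x axis); blue symbols are DMSO and red symbols erastin libraries. The ratios to the actins Actb and Actg1 overlap, and the ratio of Myl9 to Myl12a lies farthest below 0.

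Other genes of the smooth-muscle apparatus were examined through a list of 8, of which 7 were tested. Of these 5 were lower, 1 was higher and 1 did not pass, with a median log2 fold change of −1.75. Mylk, the kinase that phosphorylates the Myl9 product, stood at 73.4, 71.7 and 61.1 CPM with DMSO and at 15.6, 13.6 and 18.9 CPM with erastin. Its log2 fold change was −2.09 (SE 0.13, adjusted p = 1.46e-08). Csrp1, a LIM-domain protein of smooth muscle, had a log2 fold change of −1.88 (adjusted p = 9.26e-10), and Myh11, the smooth-muscle myosin heavy chain, one of −1.75 (adjusted p = 3.43e-06). The other 2 that fell, Synpo2 (−1.40) and Smtn (−0.69), were named after their values were seen. Des, the intermediate filament protein desmin, rose from 40.6 ± 4.97 to 66.7 ± 1.95 CPM (log2 fold change 0.72, adjusted p = 5.37e-05). Kcnmb1, a potassium channel subunit also named after its values were seen, stood at 0.529, 1.11 and 1.87 CPM with DMSO and at 0.186, 0.599 and 0.259 CPM with erastin (adjusted p = 0.0629). Pln had 0 counts in all 6 libraries, which by counting error alone allows up to 0.234 CPM in the shallowest.

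Genes known as targets of SRF were split by the kind of partner. Of 12 cytoskeletal genes known as targets of SRF and MRTF, 6 were lower, 2 were higher and 4 did not pass, with a median log2 fold change of −0.29. With upper-quartile factors or DESeq2 9 were lower, Actn1, Myh9 and Zyx being added. Vcl, coding for vinculin of focal adhesions, stood at 829.2, 785.3 and 870.1 CPM with DMSO and at 398.6, 407.3 and 402.3 CPM with erastin. Its log2 fold change was −1.04 (adjusted p = 2.17e-08). Tgfb1i1, coding for the adhesion adaptor Hic-5, had a log2 fold change of −1.16 (adjusted p = 1.66e-07), and Wdr1, which helps cofilin take filaments apart, one of −0.63 (adjusted p = 5.01e-06). In the other direction Ccn2, a secreted matrix protein also known as connective tissue growth factor, rose from 1032.7 ± 81.9 to 2330.6 ± 199.7 CPM (log2 fold change 1.17, adjusted p = 3.66e-08).

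Of 9 immediate early genes known as targets of SRF with TCFs, 0 were lower, 8 were higher and 1 did not pass, with a median log2 fold change of 0.76. With a library left out 7 to 9 were higher, and at a threshold of 0.01 there were 6. Egr1, a zinc-finger transcription factor, stood at 26.5, 26.8 and 32.6 CPM with DMSO and at 127.1, 123.0 and 64.6 CPM with erastin. Its erastin replicate 3 was the lowest of the 3, and still above every DMSO library (log2 fold change 1.88, SE 0.198, adjusted p = 2.51e-06). Nr4a1, a nuclear receptor, had a log2 fold change of 1.23 (adjusted p = 3.39e-07), Junb, an AP-1 subunit, one of 0.60 (adjusted p = 0.000525), and Fosb, another AP-1 subunit, one of 2.17 (SE 0.474, adjusted p = 0.00175). Junb moved to 0.94 with the GC and length offset.

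Among 6 genes for partners of SRF, 1 was lower, 0 were higher and 5 did not pass. The TCF gene Elk1 stood at 37.6, 36.4 and 36.0 CPM with DMSO and at 29.0, 24.9 and 26.5 CPM with erastin (log2 fold change −0.45, adjusted p = 0.00444). Mrtfa stood at 44.9, 34.9 and 44.4 CPM with DMSO and at 37.7, 38.5 and 40.2 CPM with erastin. Its groups overlapped, with a log2 fold change of −0.09 and a 95% confidence interval of −0.335 to 0.156. For Mrtfb the log2 fold change was −0.09 (interval −0.287 to 0.105). Myocd, coding for myocardin itself, was low, at 3.8 ± 0.54 CPM with DMSO and 4.36 ± 1.06 CPM with erastin, and its interval ran from −0.493 to 0.875. The log2 fold changes of the TCF genes Elk3 (−0.24, adjusted p = 0.168) and Elk4 (0.12, adjusted p = 0.353) did not pass. These are RNA levels, and the amount of each protein or its place in the cell was not measured.

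TGF-beta induces contractile genes in fibroblasts through its receptors and SMAD proteins. Of 10 genes of this pathway 4 were lower, 1 higher and 5 did not pass, with a median log2 fold change of −0.21. In all 5 were called, near the share of 43.1% called over all genes, so the list as a whole is not read as a decrease. The 5 that did not pass were Tgfb1, Tgfbr1, Smad2, Smad3 and Smad4. The ligand gene Tgfb3 stood at 348.5, 304.0 and 388.2 CPM with DMSO and at 109.9, 110.5 and 111.6 CPM with erastin (log2 fold change −1.65, adjusted p = 3.45e-09). Tgfb2, another ligand, had a log2 fold change of −1.89 (adjusted p = 9.77e-08). Of the receptors Tgfbr3 fell by 1.10 (adjusted p = 4.85e-07) and Tgfbr2 by 0.68 (adjusted p = 3.18e-05) on the log2 scale. Smad7, the inhibitory SMAD and the 1 gene that rose, was named after its values were seen (log2 fold change 0.54, adjusted p = 0.00016).

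**Figure D4:**
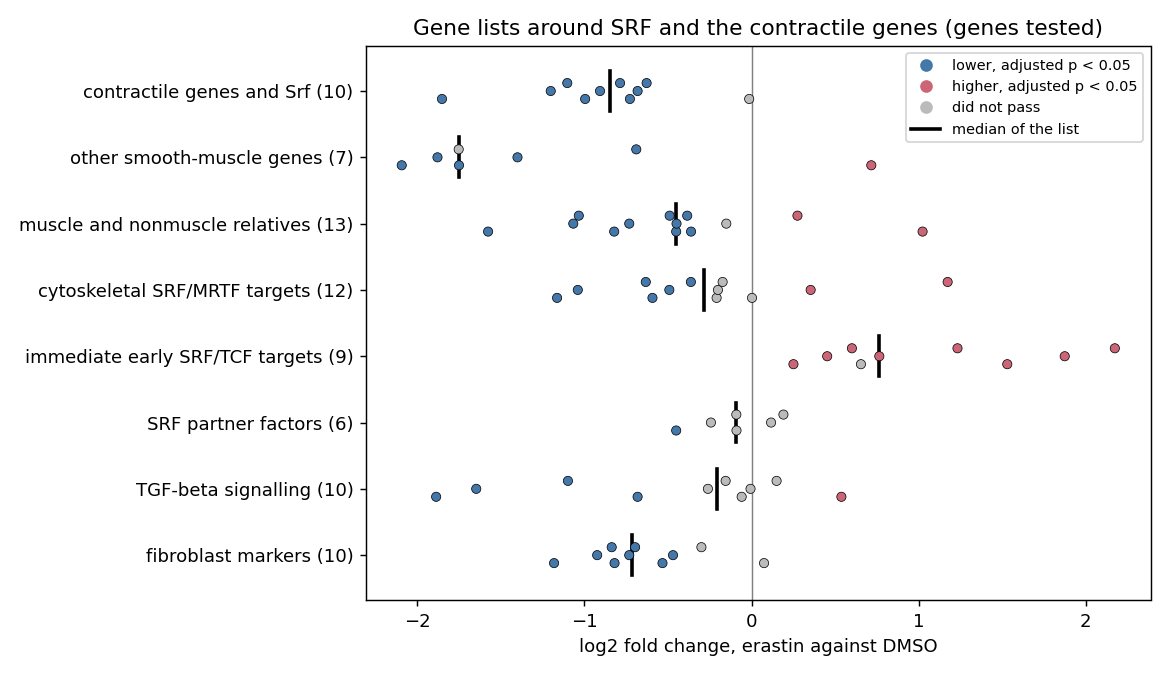
Log2 fold change of erastin against DMSO (x axis) of each tested gene (points) in 8 lists (rows, fibroblast markers included, number tested in parentheses); blue was lower, red higher, grey did not pass, and black bars are list medians. The immediate early genes lie to the right of 0, and most contractile genes and other smooth-muscle genes lie to the left.

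The genes most like Acta2 and Srf over the 6 libraries were sought in 11261 genes (50 counts or more on average), by the Euclidean distance between centred log2 CPM values. Nearest to Acta2 were Itga8, an integrin subunit of contractile cells (distance 0.063, log2 fold change −0.71), Actb (distance 0.077) and Arf5, a small GTPase (distance 0.098, log2 fold change −0.72, or −0.47 with the GC and length offset). Nearest to Srf were Ccnd1, cyclin D1 (distance 0.077, log2 fold change −0.59), Ak1, an adenylate kinase (distance 0.089, −0.61), and Slco3a1, a membrane transporter (distance 0.094, −0.65). The 6 values of these genes share the 2 groups of 3 libraries, and the distance takes in the step between the groups.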

How the data were processed

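Read counts were deposited as whole numbers per gene, 1 column per library, without normalization, as the values show. The submitters' processing notes name HTSeq 0.9.1, SAMtools and the build mm10, with no roles. The aligner, annotation release and strand setting are not given in the sources used here. Per the labels' protocols, the libraries were Ion Total RNA-seq libraries read on an Ion Proton. Of 43346 identifiers 42462 (98.0%) matched GENCODE M21 (GRCm38, the same assembly as mm10), and 0 columns of per-sample values were unused.

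Counts were fitted with edgeR 4.0.16 in R 4.3.3: filterByExpr (a minimum count of 10 in at least 3 libraries, a total of 15), TMM factors and the quasi-likelihood test with Benjamini-Hochberg adjustment over 14000 genes, treatment being the only term. The fit was tested on simulated data, with a spread that was set and not estimated from these libraries. It called 92% and 78% of genes with a true log2 fold change of 1 and −1. Of those at 0.585 and −0.585 it called 24% and 22.9%, so at that spread most smaller changes did not pass. Ratios within a library used counts plus 0.5. Alternatives used further edgeR fits, DESeq2 1.42.0 and, for the GC and length offset, mgcv 1.9.3. The 10 genes and the gene lists were chosen with earlier results of these data known. Results for 1 further list are not reported here, for a reason unrelated to their values. Named genes were the 10 genes, the relatives in pairs, the partners of SRF, up to 4 genes with the smallest p in each other list, and the 3 patterns nearest to Acta2 and Srf. RefSeq promoters are on GRCm38.p6. Depth, 13333911 to 20509970 counts, puts 3 counts at 0.14 to 0.234 CPM.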

Additional observations from a re-analysis of the deposited data

How the results depend on the processing

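The 9 decreases and the call of 0 increases among the 10 genes held under other factors, filters, DESeq2, the offsets, a threshold of 0.01 and each library left out, and the number of called genes was 4305 to 6104 (4802 to 5809 with a library left out). The median of the 10 genes was −0.90 with upper-quartile factors and −0.77 with the GC and length offset. Cald1 changed sign with total counts alone (0.051) and without the filter (0.005), and Mrtfa with the GC and length offset (0.051, and 0.055 with the block). Leaving out a library gave −0.020 to 0.023 for the Acta2 to Actb ratio and −0.041 to 0.134 for the Actg2 to Actg1 ratio. The values of Cald1 and Mrtfa were near 0 and not called, and the cause of the changes of sign was not tested. With a library left out, 6 to 8 of the 9 ratios did not overlap. The 8 came without DMSO replicate 2, when the Actg2 to Actg1 and Cnn1 to Cnn2 ratios were added. The share over all pairs of genes was not taken with a library left out. Replicate numbers were not used to pair the samples, as the labels do not give such a pairing. Each group's mean was subtracted from the log2 CPM values, and the correlation of what remained was taken between DMSO and erastin libraries. It was 0.0401, 0.0038 and −0.0055 for same-numbered libraries and −0.0446 to 0.0348 for the others. A replicate block gave 5882 called genes and the same count of 9 lower genes, with a median of −0.85. With 3 libraries a group, the exact test of a ratio could not go below 0.1.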
